A study of Mus musculus with 40 samples.

Results

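The EGF receptor family and its ligands were followed in the aorta and kidney of mice with a Tek-cre-driven deletion of EGFR, meant to act in the endothelium, and of controls, fed a standard or a high-fat diet. The group comprised 10 genes, chosen by name from the gene column of both count tables, and all of them were present among 55335 genes in the aorta table and 55382 genes in the kidney table. They were 4 receptors (Egfr, Erbb2, Erbb3 and Erbb4) and 6 ligands (Egf, Tgfa, Hbegf, Areg, Ereg and Btc). Total RNA of 20 aortas and 20 kidneys had been sequenced, with 5 mice in each of 4 groups per tissue. The knockout animals (EC-EGFR-KO, here KO) carried floxed Egfr alleles and a Tek-cre transgene, and the controls (EC-EGFR-WT, here WT) carried the same transgene without loxP sites, all on a C57BL/6 background. The Tek (Tie2) promoter drives Cre in endothelial cells and also in blood-forming cells. The labels call the deletion endothelial in titles and genotype, while their growth protocol speaks of smooth muscle cells in the same sentence as Tek-cre, and the groups were taken from titles and genotype. Animals received a standard diet (SFD, labelled SD by the submitters) or a high-fat diet (HFD), and the groups were WT SFD, WT HFD, KO SFD and KO HFD. Fat supplied 60% of energy in the HFD and 10% in the SFD. HFD mice took a mixed chow from about 5 weeks of age and pure HFD from week 6 on, for 18 weeks, after which organs were collected. Each sample was a whole tissue, so fewer cells of a type and less RNA per cell could not be told apart.

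The members are receptor tyrosine kinases and the peptides that switch them on. EGFR (ErbB1) and ErbB4 bind ligand and have an active kinase, ErbB2 has no known ligand of its own and serves as dimer partner, and ErbB3 has little kinase activity but carries docking sites for PI3 kinase. EGF, TGF-α and amphiregulin (Areg) bind EGFR, whereas HB-EGF, betacellulin (Btc) and epiregulin (Ereg) bind both EGFR and ErbB4. All of these ligands are made as membrane-bound precursors that are released by proteases of the ADAM family. In the kidney, EGF is made mainly in the thick ascending limb and the distal convoluted tubule, and in vessels HB-EGF acts on smooth muscle cells.

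Sequences bearing on the deletion and on the genes that differ most in the results were taken from the reference. The floxed allele removes a fragment with exon 1 of Egfr, which spans chr11:16752211-16752570 on the plus strand (GRCm38, GENCODE M21) and makes up 360 of the 10208 bases of the transcript with 28 exons, or 3.53%. Counts per gene also take in the sequence outside exon 1. Its coding part, chr11:16752483-16752570, holds the start codon, given here in capitals.
Egfr exon 1, coding part: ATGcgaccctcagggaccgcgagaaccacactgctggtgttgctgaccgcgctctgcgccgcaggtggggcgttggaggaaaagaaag

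The bases just before the transcription start are shown for 4 members, since Egf, Tgfa and Erbb4 had their lowest kidney means in KO HFD and Egfr was the targeted gene. RefSeq starts (GRCm38.p6) were found for 7 of the 10 members. Hbegf, whose kidney mean was also lowest in KO HFD, had none. Capitals mark CG dinucleotides, counted on the strand of the gene. The windows of 250 bases were chr3:129755323-129755572 on the minus strand for Egf, chr6:86194972-86195221 on the plus strand for Tgfa, chr1:69108060-69108309 on the minus strand for Erbb4 and chr11:16751953-16752202 on the plus strand for Egfr.
Egf: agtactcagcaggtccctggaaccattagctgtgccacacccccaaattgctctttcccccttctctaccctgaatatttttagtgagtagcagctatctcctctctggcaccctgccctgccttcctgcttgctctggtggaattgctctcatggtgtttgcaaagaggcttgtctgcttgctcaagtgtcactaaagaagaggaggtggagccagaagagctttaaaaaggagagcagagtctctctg
Tgfa: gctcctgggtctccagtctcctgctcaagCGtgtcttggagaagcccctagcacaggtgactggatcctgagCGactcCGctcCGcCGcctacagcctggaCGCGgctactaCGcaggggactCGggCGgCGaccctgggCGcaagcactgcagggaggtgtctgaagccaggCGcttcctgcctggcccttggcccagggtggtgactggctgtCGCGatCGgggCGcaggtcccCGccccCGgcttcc
Erbb4: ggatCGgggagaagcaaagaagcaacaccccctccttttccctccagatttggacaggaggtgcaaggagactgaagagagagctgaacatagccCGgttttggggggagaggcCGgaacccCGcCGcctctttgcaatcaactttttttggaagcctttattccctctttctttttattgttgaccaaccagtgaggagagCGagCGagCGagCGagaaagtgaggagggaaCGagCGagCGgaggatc
Egfr: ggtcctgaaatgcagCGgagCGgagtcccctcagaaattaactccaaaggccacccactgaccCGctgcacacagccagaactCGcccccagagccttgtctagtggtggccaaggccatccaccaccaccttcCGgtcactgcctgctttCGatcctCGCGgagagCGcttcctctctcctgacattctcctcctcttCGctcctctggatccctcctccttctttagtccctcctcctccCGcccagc

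The Egf window held 0 CG dinucleotides, as did 7.9% of 32851 promoter windows of the same length, and a second annotated Egf start lying within the gene (window chr3:129725087-129725336) held 15. Tgfa held 19, Erbb4 12 and Egfr 11. At least 10 were found in 37.8% of all windows, and the median was 6. Among the other members, Erbb2 held 16, Areg 15 and Btc 4. Ereg, Areg and Btc lie next to each other on chromosome 5, with 46.0 kb and 0 annotated genes between Ereg and Areg, and 208.8 kb with 0 protein-coding genes between Areg and Btc. These neighbours differed in level, as given below for each tissue.

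The counts assigned to genes ran from 17520161 to 36452741 per library in the aorta and from 19643033 to 48833447 in the kidney. In each tissue 1 pair of libraries from different groups was nearly identical. Aorta WT SFD replicate 1 and KO SFD replicate 12 had a median chi-square of 0.0277 over genes, and kidney KO HFD replicate 1 and WT HFD replicate 12 had 0.0269, below the 0.455 that sampling noise alone gives, while the next lowest of the 190 pairs had 1.60 and 1.62. Whether either label of such a pair is right could not be told. Both pairs were also the deepest libraries of their tissue, where the medians were 19683938 counts in the aorta and 24182781 in the kidney. Both libraries of a pair were kept in their labelled groups, so overlap between the groups that hold a pair was all but fixed in advance. Results are also given without the pair where that changed a call. Another 3 kidneys, WT SFD replicate 17 and KO SFD replicates 8 and 9, stood apart in 13 immediate-early genes, the rapidly induced transcription factors and related genes switched on by stimulation or handling. The summed level of that list was 161 to 2674 FPM in WT SFD, 196 to 289.6 in WT HFD, 162 to 2883 in KO SFD and 172 to 256 in KO HFD, where FPM is the fragment count per 1000000 counts assigned to genes, after TMM scaling of the library size. The tissues carried their markers, with a summed smooth muscle list of 25923 to 41473 FPM in the aortas (Tagln and Cnn1 were listed at 0) and a proximal tubule list of 7625 to 9873 FPM in the kidneys. In the aortas that tubule list summed to 0.760 to 1.93 FPM. Of 10 endothelial markers, Cdh5 and Esam were listed at 0 in every library. Tagln, Cnn1, Cdh5 and Esam were at 0 in both tissues, although aortic means were 21786 FPM for Acta2 and 582 FPM for Pecam1. Genes listed at 0 in both tissues are therefore not read as unexpressed, and the source of these values was not tested.

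Among receptors, the order differed between the organs. Levels between genes are compared as FPM per kilobase of the longest protein-coding transcript (mean ± SD over 20 libraries). In the aorta, Erbb2 (5.25 ± 0.402) stood above Egfr (4.13 ± 0.664) in 18 of 20 libraries. Erbb4 followed with 0.996 ± 0.323, and Erbb3 was lowest with 0.226 ± 0.0623. In the kidney the order was Erbb3 (18.6 ± 1.6), Erbb2 (12.5 ± 0.908), Egfr (4.71 ± 1.02) and Erbb4 (1.11 ± 0.28). Egfr mRNA thus made up a median of 39.1% of the summed receptor level in the aorta. Erbb3, at the bottom in aorta, was at the top in the kidney.

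Among ligands, Egf made up most of the kidney sum. Its level was 222 ± 50.6 FPM per kilobase, and its share of the 6 ligands was 73.9 to 97% with a median of 95.6%. Kidney Hbegf followed at 15.2 ± 22.9, a mean carried by the 3 kidneys named above, and then Btc (1.72 ± 0.5) and Tgfa (0.803 ± 0.174). In the aorta, Hbegf (16.2 ± 6.65) and Btc (14 ± 3.25) were the main ligands, and Hbegf was above Btc in 12 of 20 libraries, so this pair was not ordered beyond its spread. Over the union of all exons these means were 7.97 for Hbegf and 8.90 for Btc, so their order turned, and kidney Egf was 93.8. Aortic Ereg had 3.36 ± 1.24, Tgfa 1 ± 0.462 and Egf 0.195 ± 0.0763. Areg was near the detection limit in both organs, with 0 to 5 counts in the aortas (0 counts in 13 libraries) and 0 to 8 in the kidneys (0 counts in 6 libraries). Kidney Ereg had 0 to 3 counts, with 0 in 16 libraries. A count of 0 allows up to 0.0823 to 0.171 FPM in the aortas and 0.0614 to 0.153 FPM in the kidneys, for counting error alone, taken as 3 counts per library. Areg in both tissues and Ereg in the kidney were thus too low to be tested, which left 9 members in the aorta and 8 in the kidney.

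**Figure D1:**
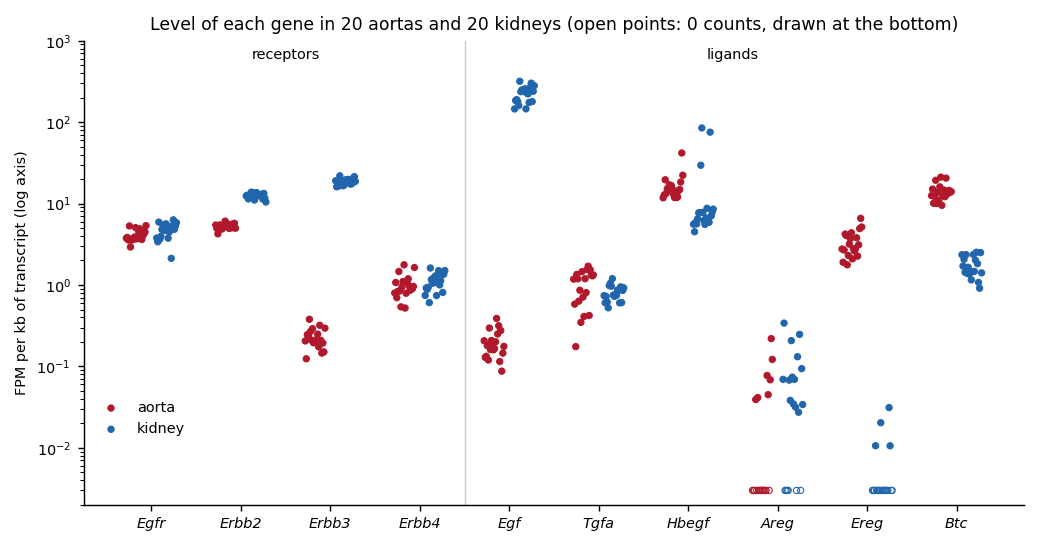
Level of each gene (x axis, receptors left, ligands right) in FPM per kilobase of transcript on a log axis, with 1 point per library, red for 20 aortas and blue for 20 kidneys; open points at the bottom had 0 counts. Kidney Egf and Erbb3 lie far above their aortic levels, Btc and Ereg lie higher in the aorta, and 3 kidneys stand apart for Hbegf.

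The difference between organs was tested between the kidneys and aortas of the WT SFD mice in 1 joint edgeR fit, whose scaling over both tables gives other FPM values than the fits per tissue. Of 9 members tested, 6 differed at an adjusted p under 0.05, against 75.2% of all 17514 genes tested, so a difference between the organs was the rule. Tissue and any difference in handling of the sets could not be told apart. Egf was 1292 ± 235 FPM in kidney and 0.681 ± 0.159 FPM in aorta (SD, n = 5), a log2 difference of 10.85 (SE 0.28, adjusted p = 1.41e-28). Erbb3 was higher in kidney by 6.53 (SE 0.19, adjusted p = 5.39e-27), Erbb2 by 1.44 (SE 0.081, adjusted p = 2.33e-18) and Egfr by 0.71 (SE 0.16, adjusted p = 0.000202). Btc was higher in aorta, at 37.2 ± 9.82 against 4.75 ± 1.93 FPM (log2 difference -2.96, SE 0.24, adjusted p = 1.04e-13). Ereg was the sixth, with 12 ± 3.79 FPM in the aortas and at most 3 counts per kidney, and no fold is given. Erbb4 (0.53, SE 0.25, adjusted p = 0.0520) and Tgfa (0.0092, SE 0.36, adjusted p = 0.983) did not pass in edgeR. Erbb4 was called by DESeq2 with all libraries (0.55, adjusted p = 0.0386), and by edgeR with DESeq2 size factors (adjusted p = 0.0451), without aorta WT SFD replicate 5 (0.73, adjusted p = 0.00971) or kidney WT SFD replicate 18 (0.65, adjusted p = 0.0232). Hbegf did not pass either, with a log2 difference of 0.72 (SE 0.54, adjusted p = 0.226), which became -0.78 (adjusted p = 0.0992) without kidney WT SFD replicate 17.

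The targeted gene was read first in the genotype comparison. In the aorta, Egfr in the 5 WT SFD libraries was 38.3, 39.2, 36.4, 54.2 and 29.9 FPM, and in the 5 KO SFD libraries 37.6, 38.3, 46.1, 50.01 and 48.1 FPM. Under HFD the WT aortas had 36.4, 37.7, 37.2, 39.7 and 51.7 FPM and the KO aortas 36.9, 41.4, 43.6, 45.7 and 54.7 FPM. The groups overlapped throughout, and the mean of each KO group lay above that of its control. The near-identical pair, at 38.3 FPM in both SFD groups, all but fixed the overlap under SFD in advance. The log2 difference of KO against WT was 0.15 under SFD (SE 0.15, adjusted p = 1.00) and 0.13 under HFD (SE 0.15, adjusted p = 0.916). In the kidney, the corresponding values were -0.086 (SE 0.17, adjusted p = 1.00) and 0.062 (SE 0.17, adjusted p = 0.947), and the latter became -0.092 without KO HFD replicate 3 and -0.090 without WT HFD replicate 15. In the kidney the near-identical pair sits on both sides of the HFD comparison. The counts pool all cell types and all exons, so they are no check of the genotype labels, and reads over exon 1 alone were not analysed here.

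No other member passed the test between KO and WT in either tissue. In the aorta, 0 of 9 members passed in edgeR under SFD (0% of all genes), 0 under HFD (0%) and 0 averaged over both diets (0.0198%), with 1, 1 and 0 members at an unadjusted p under 0.05 (background 2.28%, 5.85% and 8.78%). In the kidney, 0 of 8 passed in the same comparisons (0%, 0% and 0% of all genes), again with 1, 1 and 0 at an unadjusted p under 0.05 (background 2.67%, 3.42% and 4.82%), and DESeq2 called 0 members in each tissue. The interaction of genotype and diet was called for 0 members in aorta (0% of all genes), with 2 members at an unadjusted p under 0.05 (background 0.84%). In kidney it was called for 0 (0% of all genes), with 1 member at an unadjusted p under 0.05 (background 1.79%), and DESeq2 called 0 in both. Standard errors of the kidney differences were 0.07 for Erbb2 to 0.73 for Hbegf under SFD. Erbb4 in KO HFD kidneys was -0.45 against WT HFD (SE 0.18, adjusted p = 0.814).

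The HFD comparison in the kidney called members of both kinds. Averaged over both genotypes, 3 of 8 tested members were called, all lower under HFD: the ligands Egf and Hbegf and the receptor Egfr. The background was 16.4% of all genes called and 8.7% called lower. Among KO mice alone 2 of 8 were called, Egf and Tgfa, both lower (background 6.34% called, 3.18% lower), and among WT mice 0 of 8 (background 6.71%), with 2 members at an unadjusted p under 0.05 (background 19.4%) and 0 by DESeq2. The median log2 difference of the 8 members was -0.46 in KO, -0.070 in WT and -0.34 averaged, while the median over all genes was -0.0006, -0.0003 and -0.0012. The difference in response between the genotypes was called for 0 members, so the HFD effect was not shown to differ between KO and WT. The WT and KO comparisons have no library in common, apart from the near-identical pair, which sits in both HFD groups.

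Egf, the main kidney ligand, had 1513, 1126, 1182, 1184 and 1138 FPM in KO SFD and 692, 878, 899, 848 and 761 FPM in KO HFD. Each KO HFD kidney was below each KO SFD kidney. In WT SFD the values were 1272, 1436, 852, 1141 and 1336 FPM and in WT HFD 1224, 693, 1077, 1059 and 831 FPM, and these groups overlapped. The kidney at 852 FPM, WT SFD replicate 18, also had the lowest mean of the podocyte, endothelial and macrophage lists among the 20 kidneys. Its mean of the red blood cell list was the highest. The part of its composition in the WT values was not tested. Means were 1229 ± 161 FPM and 816 ± 87.1 FPM in KO, and 1207 ± 225 FPM and 977 ± 212 FPM in WT (SD, n = 5 each). On the log2 scale Egf fell by 0.59 in KO (SE 0.15, adjusted p = 0.0168) and by 0.45 on average over both genotypes (SE 0.10, adjusted p = 0.00481), and the difference in WT was -0.31 (SE 0.15, adjusted p = 0.258). The averaged call was kept without the near-identical pair (-0.37, adjusted p = 0.0119), without the 3 kidneys high in immediate-early genes (-0.43, adjusted p = 0.0227) and without all 5 (-0.35, adjusted p = 0.0399). The KO call was lost without those 3 kidneys (-0.62, adjusted p = 0.0557), without KO HFD replicate 1 (-0.54, adjusted p = 0.0516) and without KO SFD replicate 6 (-0.51, adjusted p = 0.0579).

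Markers of the tubule segments that make EGF were read alongside. Slc12a1, the NKCC2 transporter of the thick ascending limb, was 1191, 878, 828, 1253 and 970.3 FPM in KO SFD and 601, 675, 589.9, 823 and 652 FPM in KO HFD, again without overlap. It fell by 0.62 in KO (SE 0.16, adjusted p = 0.0191) and by 0.41 averaged (adjusted p = 0.0133), and was -0.21 in WT (adjusted p = 0.501). Umod, uromodulin of the same segment, did not pass (-0.35 in KO, adjusted p = 0.0947). Of 4 markers of the distal convoluted tubule, 1 was called higher in each genotype and 2 on average. Pvalb, a calcium-binding protein of its early part, rose by 1.63 in KO (adjusted p = 0.000736) and 1.27 in WT (adjusted p = 0.00580), and Slc12a3, the thiazide-sensitive transporter, by 0.43 averaged (adjusted p = 0.0330). Calb1 (0.26 averaged, adjusted p = 0.0841) and Trpm6 (0.29 averaged, adjusted p = 0.128) did not pass. Over all 6 listed markers of both segments, the summed level was 4177 to 5296 FPM in KO SFD, 3452 to 4661 in KO HFD, 3548 to 4968 in WT SFD and 3447 to 5472 in WT HFD. The mean of the list on the log2 scale ran the other way from Egf. It was 7.90 in KO SFD and 8.17 in KO HFD, and 7.86 in WT SFD and 8.18 in WT HFD. With group means removed, Egf and the mean of this list gave r = 0.39 over 18 kidneys (permutation p = 0.109, adjusted over 4 relations 0.158; rho = 0.38, permutation p = 0.118, adjusted 0.157), and r = 0.092 without the 2 kidneys farthest from the list's median. The part of these segments in the Egf result was not tested.

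Tgfa, the other ligand called in KO, encodes TGF-α. It was 4.46, 4.75, 4.38, 5.42 and 3.41 FPM in KO SFD and 3.35, 2.74, 3.28, 2.8 and 2.37 FPM in KO HFD. The highest KO HFD kidney lay just below the lowest KO SFD kidney. WT SFD kidneys had 2.73, 4.29, 2.75, 3.88 and 4.18 FPM and WT HFD kidneys 3.28, 3.43, 3.39, 3.92 and 3.92 FPM, with the HFD values inside the SFD range. Tgfa fell by 0.62 in KO (SE 0.16, adjusted p = 0.0201) and differed by 0.009 in WT (SE 0.16, adjusted p = 0.984). The difference between these effects was -0.63 (SE 0.22) and did not pass over all genes (adjusted p = 1.00). Under SFD, Tgfa averaged 4.48 FPM in KO and 3.57 FPM in WT (log2 difference 0.33, unadjusted p = 0.0478 in edgeR, not called). Under HFD, KO against WT was -0.30 (adjusted p = 0.814). The KO fall was thus measured from an SFD mean above that of WT. The call in KO was lost without the 3 kidneys high in immediate-early genes (-0.52, adjusted p = 0.128), and in turn without KO HFD replicate 4 (-0.60, adjusted p = 0.0522), KO HFD replicate 5 (-0.55, adjusted p = 0.0579) and KO SFD replicate 9 (-0.54, adjusted p = 0.0664). Averaged over both genotypes the value was -0.30 (adjusted p = 0.0667), and it was called by DESeq2 (adjusted p = 0.0493) and, in edgeR, without KO SFD replicate 10 or WT SFD replicate 16 or 18 (adjusted p = 0.0369, 0.0387 and 0.0416).

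Among the kidney receptors, Egfr passed the test, Erbb4 lay at the threshold, and Erbb2 and Erbb3 did not pass. Egfr was 54.2, 64.5, 49.3, 54.3 and 59.5 FPM in WT SFD and 48.5, 38.4, 45.6, 48.4 and 21.7 in WT HFD, with each WT HFD kidney below each WT SFD kidney. In KO SFD it was 49.1, 55.3, 55.6, 47.8 and 57.6 FPM and in KO HFD 38.5, 34.6, 60.5, 37.4 and 40.4, where 4 of 5 HFD kidneys were below the SFD range and replicate 3 was above it. Egfr fell by 0.40 averaged over both genotypes (SE 0.12, adjusted p = 0.0292), with -0.48 in WT (adjusted p = 0.118) and -0.33 in KO (adjusted p = 0.313). That call was lost without the near-identical pair (-0.38, adjusted p = 0.0712), without the 3 kidneys high in immediate-early genes (-0.38, adjusted p = 0.0870), and without KO HFD replicate 1, 2 or 4 or WT SFD replicate 17 (adjusted p = 0.0518, 0.0535, 0.0561 and 0.0533).

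Erbb4, the receptor for HB-EGF and betacellulin, was 19.5, 14, 12.6, 14.7 and 14.7 FPM in KO SFD and 8.95, 11.1, 10.6, 11.3 and 7.31 in KO HFD, without overlap. WT SFD kidneys had 9.75 to 18.1 FPM and WT HFD kidneys 8.93 to 18.1 FPM. Its difference was -0.62 in KO (SE 0.19, adjusted p = 0.0524), -0.13 in WT (SE 0.18, adjusted p = 0.742) and -0.37 averaged (SE 0.13, adjusted p = 0.0542), on the edge of the threshold, and DESeq2 called the first and the last of these (adjusted p = 0.0174 and 0.0265). The averaged value was called without WT HFD replicate 14 (-0.43, adjusted p = 0.0252) or WT SFD replicate 18 (-0.42, adjusted p = 0.0175). Erbb2 (52.4 to 69.2 FPM over the 20 kidneys) and Erbb3 (96.7 to 132 FPM), the most abundant kidney receptors, overlapped between diets. Their log2 differences were -0.072 in KO and 0.11 in WT for Erbb2, and 0.049 and -0.0056 for Erbb3, with SEs of 0.07 to 0.08. In KO, 4 of 8 members (Egf, Tgfa, Erbb4 and Hbegf) were lower under HFD without overlap, against 4.07% of all genes, and in WT 1 of 8 (Egfr), against 3.64%.

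**Figure D2:**
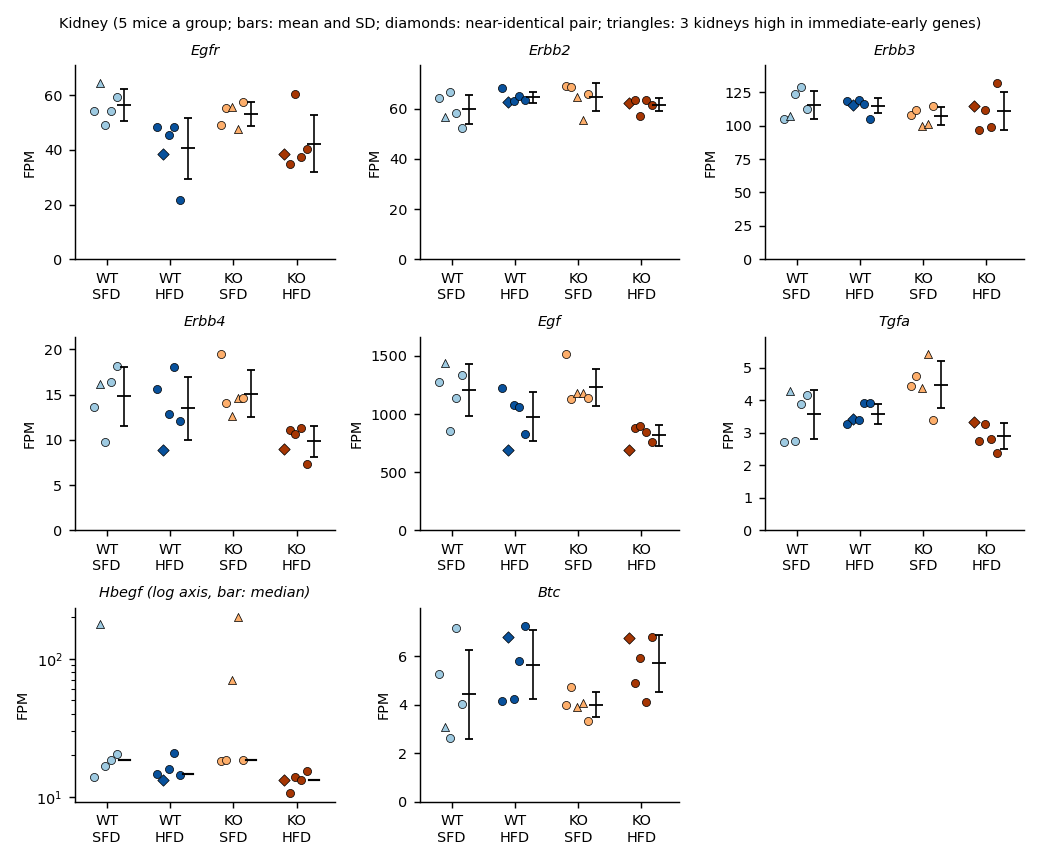
Kidney levels in FPM (y axes from 0, log axis for Hbegf) in the 4 groups (x axes), 1 point per mouse, with mean and SD (median for Hbegf); diamonds mark the near-identical pair and triangles the 3 kidneys high in immediate-early genes. Egf, Tgfa and Erbb4 have their lowest means in KO HFD, and so has Hbegf its lowest median. Egfr is lower under HFD in all but 1 KO kidney, and Erbb2 and Erbb3 overlap between all groups.

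Kidney Hbegf was high where the immediate-early genes were high. It was 179 FPM in WT SFD replicate 17, 70.3 in KO SFD replicate 8 and 201 in KO SFD replicate 9, and 10.7 to 20.8 FPM in the other 17 kidneys. Those 3 kidneys had Fos at 76.1, 83.4 and 91.1 FPM, against 0.333 to 7.06 FPM elsewhere. Hbegf fell by 1.97 on the log2 scale averaged over both genotypes (SE 0.54, adjusted p = 0.0179), with -2.29 in KO (adjusted p = 0.0947) and -1.65 in WT (adjusted p = 0.239). The value in KO was called by DESeq2 (adjusted p = 0.0230) and by the likelihood ratio test (adjusted p = 0.0297). Without the 3 kidneys the averaged, KO and WT values became -0.30 (adjusted p = 0.0554), -0.45 (adjusted p = 0.105) and -0.14 (adjusted p = 0.601). Without the near-identical pair the averaged value was -1.94 (adjusted p = 0.0559). All 3 belonged to SFD groups. Among the 15 other kidneys left without the near-identical pair, Hbegf and the immediate-early list, both as deviations from group means, gave r = 0.84 (permutation p = 9e-05) and rho = 0.83 (permutation p = 0.00029), and r = 0.86 without the 2 kidneys farthest from the median. This relation was computed after seeing the data.

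Btc was the only tested kidney ligand with a positive averaged HFD difference. It was 4, 4.75, 3.91, 4.07 and 3.32 FPM in KO SFD and 6.76, 4.91, 5.95, 4.12 and 6.79 FPM in KO HFD, with overlap at the lower end. WT SFD kidneys spanned 2.62 to 7.19 FPM and WT HFD kidneys 4.17 to 7.27 FPM. The difference was 0.51 in KO (SE 0.24, adjusted p = 0.236), 0.35 in WT (SE 0.23, adjusted p = 0.447) and 0.43 averaged (SE 0.17, adjusted p = 0.0837). None passed, but the averaged value was called without WT SFD replicate 19 (0.55, adjusted p = 0.0159).

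**Figure D3:**
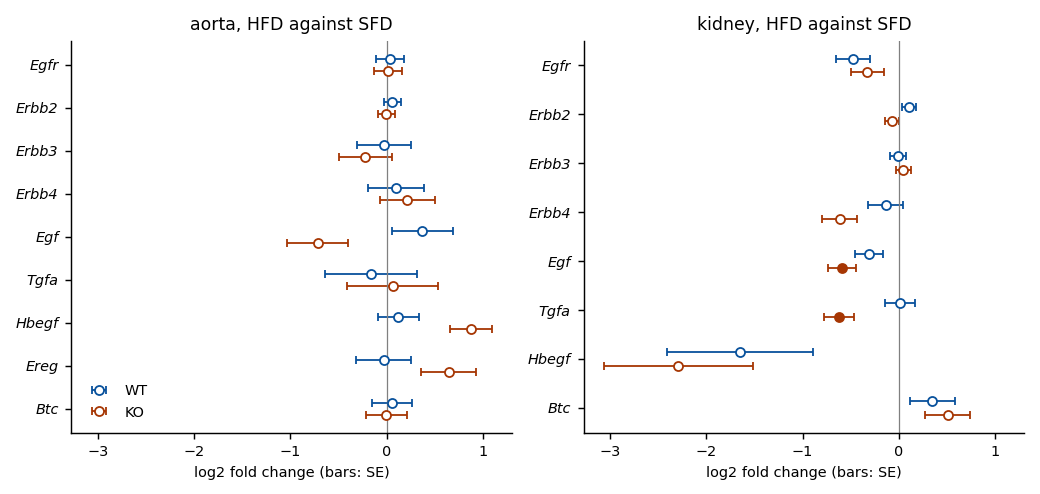
Log2 fold change of HFD against SFD (x axes, bars show SE) for each tested gene (y axes) in aorta (left) and kidney (right), blue for WT and red for KO; filled points passed an adjusted p of 0.05 in edgeR. Kidney Egf and Tgfa in KO are the filled points, at -0.59 and -0.62.

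In the aorta no member passed in any diet comparison. In edgeR, 0 of 9 were called for HFD in WT (0.0132% of all genes), in KO (0%) and averaged over both genotypes (0.0529%), with 0, 3 and 1 members at an unadjusted p under 0.05 (background 2.61%, 4.56% and 6.7%), and DESeq2 called 0. The 3 in KO were Hbegf, Ereg and Egf. Hbegf was 31, 28.2, 28.4, 28.2 and 28.7 FPM in KO SFD and 34.4, 35.4, 43.7, 99.3 and 52.9 FPM in KO HFD. Each KO HFD aorta was above each KO SFD aorta, the only such member of 9 (background 0.721% of all genes without overlap), and KO HFD replicate 19 stood far above the rest. The difference was 0.88 (SE 0.22, adjusted p = 0.987) and 0.52 without that library (adjusted p = 0.987). WT aortas had 27.9, 30.2, 46.6, 31.8 and 36.2 FPM under SFD and 35.5, 40.4, 37, 39.4 and 35.8 FPM under HFD, with overlap.

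Ereg, which like Hbegf is induced by growth signals, was 8.65, 11.5, 10.8, 11.5 and 15.7 FPM in KO SFD and 9.34, 12.9, 20.4, 27.2 and 21.3 FPM in KO HFD (0.65, SE 0.29, adjusted p = 0.987). The library with the highest Hbegf also had the highest Ereg. The immediate-early list summed to 685 to 3256 FPM in WT SFD, 1362 to 4677 in WT HFD, 1857 to 4010.1 in KO SFD and 1771 to 18520.0 in KO HFD aortas, highest in the same library, and its part in these values was not tested. Egf, at 0.416 to 1.85 FPM the lowest tested aortic ligand, was 0.79, 0.957, 1.85, 1.19 and 1.5 FPM in KO SFD and 0.546, 1.32, 0.416, 0.693 and 0.839 FPM in KO HFD (-0.72, SE 0.32, adjusted p = 0.987). These groups overlapped.

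The remaining aortic members varied among mice of the same group. Over the 20 aortas, Tgfa spanned 0.793 to 7.71 FPM, Btc 27.4 to 60.8, Erbb4 6.27 to 21.3 and Erbb3 0.746 to 2.28 FPM, while Erbb2 was narrow at 21.3 to 30.5 FPM. Means of Tgfa were 4.05 ± 2.25 FPM in WT SFD, 3.63 ± 1.86 FPM in WT HFD, 5.12 ± 2.4 FPM in KO SFD and 5.35 ± 1.97 FPM in KO HFD (SD, n = 5), with overlap of all groups. The 8 endothelial markers with counts summed to 334 to 1445 FPM in WT SFD, 395 to 1637 in WT HFD, 757 to 1914 in KO SFD and 631 to 1710.4 in KO HFD aortas, so these markers varied by more than 2-fold within each group. That spread was not used as a covariate, and its part in the Tgfa values was not tested. SEs of the HFD differences in KO were 0.09 for Erbb2 to 0.47 for Tgfa.

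**Figure D4:**
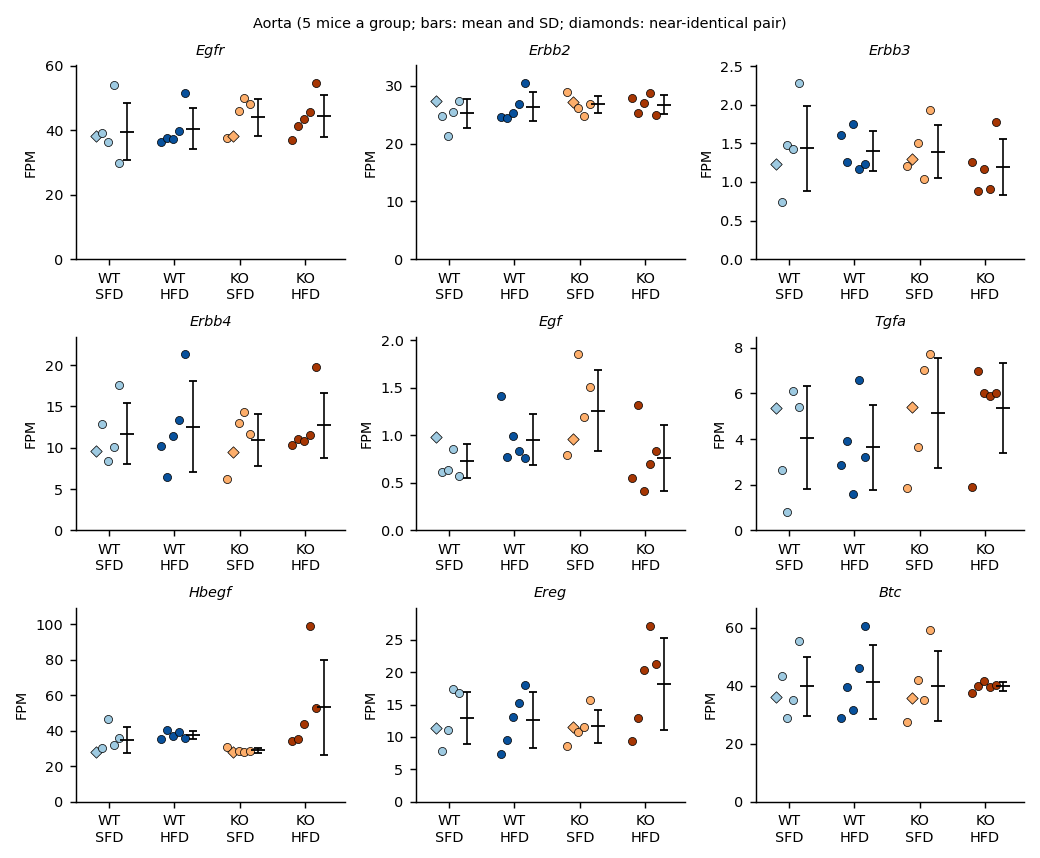
Aortic levels in FPM (y axes from 0) in the 4 groups (x axes), 1 point per mouse, with mean and SD; diamonds mark the near-identical pair. Hbegf in KO HFD lies above KO SFD, with 1 library at 99.3 FPM, and the groups of every other gene overlap.

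The wider pathway was read from a list of 93 genes ordered by role, and 77 were tested in the aorta and 78 in the kidney. The same 12 genes, among them Map2k1, Cbl and Adam10, were listed at 0 in both tissues and are not read as unexpressed. In the aorta 0 passed in each of the 7 comparisons in edgeR, with 0 to 4 at an unadjusted p under 0.05, and DESeq2 called 1 (Myc, KO against WT under HFD). In the kidney 0 passed in KO against WT or in the difference between the HFD effects, with 0 to 3 at an unadjusted p under 0.05 and 0 by DESeq2. Under HFD, 3 of 78 rose and 0 fell in WT, 3 rose and 2 fell in KO, and 4 rose and 7 fell on average. The shares called, 3.85%, 6.41% and 14.1%, were each near or below the background over all genes given above.

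The largest kidney changes in the list lay downstream of the receptors. Etv4 and Etv5, transcription factors induced by ERK signalling, rose in both genotypes. Etv4 was 0.456 to 1.14 FPM in WT SFD, 3.56 to 6.36 in WT HFD, 0.495 to 1.01 in KO SFD and 3.75 to 4.82 in KO HFD, with no overlap between diets. It rose by 2.40 in WT (SE 0.26, adjusted p = 5.88e-06) and 2.51 in KO (SE 0.26, adjusted p = 4.42e-06), and Etv5 by 0.96 (adjusted p = 5.84e-05) and 1.02 (adjusted p = 3.28e-05). Other feedback genes did not follow as a set: on average over genotypes the list ran from 2.46 for Etv4 to -1.24 for Myc (adjusted p = 0.0678, and 0.0306 in DESeq2). Without the 3 kidneys high in immediate-early genes Myc was 0.087 (adjusted p = 0.740). Ccnd1, cyclin D1, fell by 0.36 (adjusted p = 0.0154), and this call was lost without those kidneys (-0.28, adjusted p = 0.0821). Of the other ErbB ligands, Nrg1, a neuregulin that binds ErbB3 and ErbB4, fell by 0.93 in KO (SE 0.25, adjusted p = 0.0311) and by 0.77 averaged (adjusted p = 0.00499). The KO call for Nrg1 was lost without the near-identical pair (-0.90, adjusted p = 0.0695) and without the 3 kidneys high in immediate-early genes (-0.71, adjusted p = 0.207), and in turn without KO HFD replicate 1, 2 or 5 or KO SFD replicate 9 (-0.90, -0.83, -0.83 and -0.74, adjusted p = 0.0723, 0.0826, 0.0819 and 0.107).

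Changes of kinase and receptor turnover genes were smaller. Braf, a kinase of the ERK cascade, fell by 0.41 in KO (adjusted p = 0.0299) and by 0.33 averaged (adjusted p = 0.00593). The averaged call was kept without the 3 kidneys high in immediate-early genes (adjusted p = 0.0254) and the KO call was lost (-0.42, adjusted p = 0.107), as it was in turn without KO HFD replicate 1, 2, 4 or 5 or KO SFD replicate 6, 7, 8 or 10 (-0.37 to -0.42, adjusted p = 0.0521 to 0.0862). Pik3cd, a PI3 kinase subunit of leukocytes, rose by 0.65 in WT (adjusted p = 0.0379), in kidneys where all 5 macrophage markers rose on average over genotypes (summed level 41.9 to 86.7 FPM in WT SFD, 78.0 to 130.2 in WT HFD, 53.0 to 84.0 in KO SFD and 76.7 to 139 in KO HFD), and their part in it was not tested. The Pik3cd call was lost without WT HFD replicate 11, 13 or 14 or WT SFD replicate 16 or 19 (0.58 to 0.67, adjusted p = 0.0600 to 0.101). Rab7, a late endosome GTPase, rose by 0.21 in KO (adjusted p = 0.0218), a call lost without the 3 kidneys (0.24, adjusted p = 0.0732) and without KO HFD replicate 1 or 2 or KO SFD replicate 6, 7 or 9 (0.20, adjusted p = 0.0541 to 0.0619). Cblc, a ubiquitin ligase, fell by 0.41 averaged (adjusted p = 0.00578). The averaged values of 9 sheddases and iRhoms, which release the ligands, ran from -0.35 for Rhbdf1 (adjusted p = 0.0655, called by DESeq2, and -0.082 without the 3 kidneys) to 0.45 for Adam8 (adjusted p = 0.309). Those of 14 adaptors ran from -0.29 for Shc4 (adjusted p = 0.373) to 0.17 for Eps15 (adjusted p = 0.139).

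Which genes varied most like each member was described by Pearson's r of log2(FPM + 0.5) over 18 libraries per tissue, without the near-identical pair, among 13195 genes in the aorta and 13514 in the kidney with a mean of at least 1 FPM. The libraries share depth and composition effects, and no test is given. In the aorta, Tgfa was most like Clic5 (0.96), Tek (0.96) and Clec14a (0.96). Clec14a is an endothelial gene, and so is Tek, whose promoter drives the Cre. Aortic Hbegf was most like Maff (0.92), Arc (0.90) and Midn (0.88), and Ereg most like Fosl2 (0.93), Errfi1 (0.92) and Spty2d1 (0.92), where Maff and Arc are rapidly induced genes and Errfi1 is a feedback inhibitor of EGFR. Erbb4 was most like Tspan9 (0.92), Dyrk2 (0.92) and Plxna1 (0.91), Egfr like Gmeb2 (0.84), Xpo5 (0.77) and Mapk8 (0.77) and Btc like Rnf217 (0.85), Zfhx4 (0.82) and Phf20 (0.81). Values for the abundant Erbb2 were lower, with Ttc39c (0.77), Dvl2 (0.68) and Gm26315 (0.67), as were those for Erbb3, with Isg20l2 (0.73), Zfp128 (0.71) and Foxred2 (0.70).

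In the kidney, 1 pair of members was among the closest genes. Egf was the second closest gene to Erbb4, which was most like Abcc1 (0.85), Egf (0.85) and Gfra1 (0.85). Other pairs of members were Erbb4 with Tgfa (r = 0.68), Egf with Tgfa (0.62) and Egfr with Egf (0.62), and the diet difference that these members share was not removed. Egf itself was most like Coro2a (0.89), Cdc42bpg (0.87) and Col5a2 (0.86). Hbegf was most like Fosb (0.98), Gdf15 (0.97) and Srf (0.97), where Fosb is an immediate-early gene and Srf their regulator. Tgfa was most like Gm10382 (0.81), Abcc1 (0.80) and Gm13075 (0.79), Egfr like Glis1 (0.82), Ap2a1 (0.78) and Gm2274 (0.77), Btc like Gtf3c3 (0.82), Ppp3cb (0.80) and Cdkl1 (0.79), Erbb2 like Zbtb48 (0.86), Slx1b (0.80) and Ephb3 (0.79) and Erbb3 like Cnnm3 (0.72), Gcn1 (0.72) and Sgsm3 (0.71).

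Relations within groups were tested for 2 aortic receptors. With group means removed, Egfr and the mean of 5 fibroblast markers gave r = 0.35 over 18 aortas (permutation p = 0.155, adjusted 0.158) but rho = 0.54 (permutation p = 0.0217, adjusted 0.0433), and r = 0.79 without WT SFD replicates 3 and 5, the 2 farthest from the list's median. Erbb3 and the nerve markers gave r = 0.35 (permutation p = 0.158, adjusted 0.158) and rho = 0.25 (permutation p = 0.310, adjusted 0.310), and r = 0.016 without the 2 farthest.

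**Figure D5:**
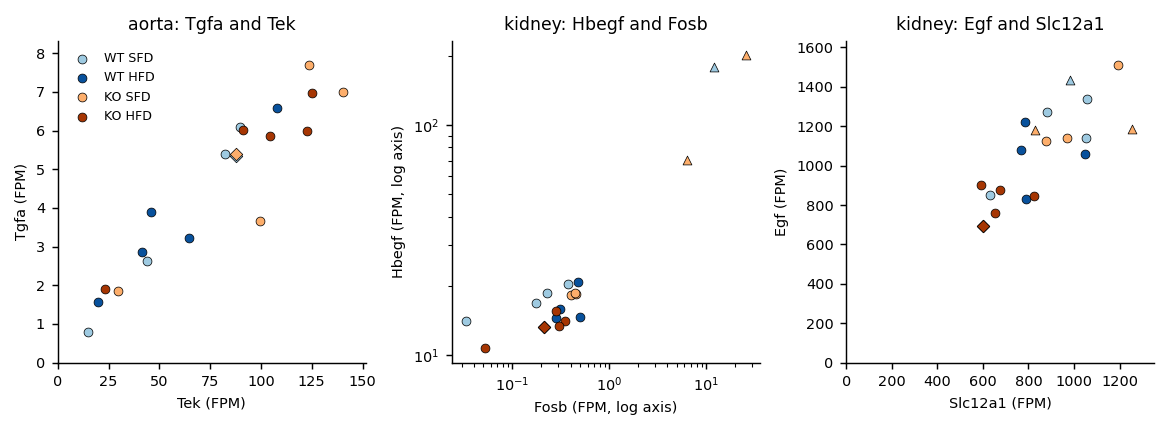
FPM of aortic Tgfa against Tek (left), kidney Hbegf against Fosb (middle, log axes) and kidney Egf against Slc12a1 (right), 1 point per library, coloured by group; diamonds and triangles mark the libraries named in the kidney and aorta plots. Tgfa rises with Tek across all groups, and 3 kidneys hold the high end of both Hbegf and Fosb. The KO HFD kidneys lie at the low end of Egf, as do WT HFD replicates 12 (of the near-identical pair) and 15 and WT SFD replicate 18. Most of these are also low in Slc12a1. KO HFD replicate 4 (823 FPM) and WT HFD replicate 15 (788 FPM) lie nearer its median of 825 FPM over all 20 kidneys.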

How the data were processed

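Total RNA of whole aorta and whole kidney was sequenced in 40 libraries. The authors deposited raw counts per gene, obtained from reads mapped to mm10 with HISAT2 2.1.0 and counted with featureCounts according to the submitters' processing notes (the study's methods name TopHat2 as the mapper). Whether counting used strand is not given in the sources used here. Samples were grouped by title, and count columns were matched to titles by their library number.

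From the deposited counts, genes were filtered with filterByExpr, scaled with TMM and fitted per tissue with 4 groups by edgeR 4.0.16 (quasi-likelihood, robust) in R 4.3.3. This left 15122 genes in the aorta and 15943 in the kidney. Genotype, diet and their interaction were tested as contrasts, and kidney against aorta in a joint fit of both tables. A gene was called at a Benjamini-Hochberg adjusted p under 0.05 over all genes tested. The fits were tested on simulated data. Alternatives used DESeq2 1.42.0, other filters and leaving out libraries. Relations used 100000 permutations, 2-sided, on log2(FPM + 0.5). Named genes were all members, called pathway genes (at most the 5 with the largest change per comparison in detail), the extremes of each role list, list markers and the 3 most similar genes. Further called pathway genes were named after their values were seen. The members and lists were chosen with earlier results of these data known.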

Additional observations from a re-analysis of the deposited data

Results flagged for a closer look

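Each tested gene was checked in each group of 5 for a mouse far from the others, by the gap to the nearest mouse over the whole range (above 0.71, Dixon's limit). Of 68 checks 10 were met, and chance alone gives about 3.4. In the aorta these were Egfr in WT HFD replicate 10 (51.7 FPM, high), Erbb4 in KO HFD replicate 20 (19.7 FPM, high), Tgfa in KO HFD replicate 16 (1.91 FPM, low), Hbegf in KO SFD replicate 11 (31.0 FPM, high within a narrow group) and Hbegf in KO HFD replicate 19 (99.3 FPM, high). In the kidney these were Egfr in KO HFD replicate 3 (60.5 FPM, high), Erbb3 in WT HFD replicate 15 (105 FPM, low), Egf in KO SFD replicate 6 (1513 FPM, high), Hbegf in WT SFD replicate 17 (179 FPM, high) and Hbegf in KO SFD replicate 9 (201 FPM, high). The Tgfa-low aorta also had low Tek, as the plot of Tgfa against Tek shows. The kidney with low Erbb3, WT HFD replicate 15, also had the lowest Egfr of its group, at 21.7 FPM. The Hbegf-high kidneys are those high in immediate-early genes.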

How the results depend on the processing

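For HFD in KO kidneys the count of 2 called members became 1 without the filter on low counts, 1 with a fold over 1.5 and a mean over 5 FPM also required, 0 without the 3 kidneys high in immediate-early genes, 0 when the near-identical pair was left out as well, and 1 to 2 when single libraries were left out. DESeq2 and the likelihood ratio test called 4. Averaged over both genotypes the count of 3 became 5 with DESeq2, 1 with the fold and level also required, 1 without the near-identical pair, 1 without the 3 kidneys, 1 without all 5 libraries, and 2 to 5 when single libraries were left out. The organ comparison called 6 to 7 when single libraries were left out. For the pathway list, DESeq2 called 1 gene instead of 0 in the aorta (KO against WT under HFD). In the kidney, the count of 3 for HFD in WT became 5 without the near-identical pair, 6 with DESeq2 and 9 without the 3 kidneys, the count of 5 in KO became 3 without the 3 kidneys, and the count of 11 on average became 17 without them.

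The relation of Egf with the thick ascending limb and distal convoluted tubule list was r = 0.57 with all 20 libraries (permutation, adjusted p = 0.0180). That setting adds back the near-identical pair, with Egf at 692 and 693 FPM and list deviations of -0.048 and -0.047. Its p-value counts these libraries as independent, so it is not read as a stronger relation. With group means kept, the relation reversed to r = -0.38 (adjusted p = 0.147). Those means ran higher under HFD for the list and lower for Egf. Reversed signs were otherwise met by values that were not called in either direction: Erbb4 for HFD in WT kidneys (0.018 without the 3 kidneys and the near-identical pair), Tgfa between organs (-0.0073 without a filter, -0.26 to 0.18 when single libraries were left out), Hbegf between organs (-0.78 to 0.96), kidney Egfr for KO under HFD (-0.092 to 0.14) and Tgfa for HFD in WT kidneys (-0.075 to 0.087). The cause was not tested, except that leaving out libraries gives fewer samples. No paired analysis was possible because library numbers are unique within a tissue and pair no samples. The settings without the 3 kidneys were chosen after seeing the data. At 5 mice a group, Areg and kidney Ereg lay below what the depth can test.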
